A study of Mus musculus with 2 samples.

Results

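Whole dorsal skin holds a small set of cells with transcripts of Il1b, Ccr2, Mefv or Lyz1 and little complement C1q. Here 268 such cells were described, 121 from wildtype and 147 from Eppk1-/- skin, among 17492 cells kept from both libraries. The cells were selected on these transcripts. A cell was kept with 200 to 45000 unique molecular identifiers (UMIs, each standing for 1 captured probe ligation product), 100 to 7500 genes and at most 10% of UMIs from mitochondrial genes. Of the kept cells, those with C1qa, C1qb and C1qc under 0.1% of UMIs, Col1a1, Col1a2, Col3a1 and Dcn under 2% and Dsp, Perp, Sfn and Krt10 under 1% were taken when Il1b, Ccr2, Mefv and Lyz1 summed to at least 3 UMIs and to no fewer than the dendritic genes Cd207, Flt3, Xcr1, Clec9a, Ccr7 and Zbtb46. These are called the selected cells, and the genes used to choose them are given as a description.

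The wildtype library came from a punch biopsy of 6 mm from 1 untreated C57BL/6J mouse, and the Eppk1-/- library from 1 untreated mouse with the knockout backcrossed into C57BL/6J. The age and sex of the mice are not given in the sources used here. With 1 library per genotype no test between genotypes was possible, differences between mice and between genotypes cannot be told apart, and all intervals are exact 95% intervals that cover counting error only. Cells of a library share an animal and a dissociation and are not replicates.

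Monocytes enter skin from blood through the chemokine receptor Ccr2 and there become macrophages or monocyte-derived dendritic cells, gaining MHC class II molecules that present antigen to T cells. Il1b encodes interleukin-1 beta, a cytokine that is cleaved by inflammasomes such as the pyrin inflammasome, whose sensor is the product of Mefv. Lyz1 and Lyz2 encode lysozymes, which cut bacterial cell walls, and Mpeg1 encodes perforin-2, a pore-forming protein of phagocytes. Skin-resident macrophages make C1q, which the selection removes.

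The wildtype library held 9179 cells, of which 8875 were kept with a median of 4963 UMIs, and the Eppk1-/- library 8811 cells, of which 8617 were kept with a median of 5006 UMIs. The selected cells had a median of 4817 UMIs (lowest 639, highest 33392) and 1991 genes in wildtype, and 5147 UMIs (lowest 506, highest 28012) and 1927 genes in Eppk1-/- skin. Together they gave 715177 and 860282 UMIs outside mitochondrial genes, and levels are stated as UMIs per 1000000 of these (CPM). The cells of both mice were pooled before they were put into droplets and were told apart by probe barcodes, and 1211 droplet barcodes occurred in both libraries. Of the selected cells, 23 in wildtype and 15 in Eppk1-/- skin had such a droplet barcode, and in 1 droplet both cells were selected.

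Selected cells made up 1.36% of kept wildtype cells (interval 1.13 to 1.63) and 1.71% of kept Eppk1-/- cells (1.44 to 2.00), and these intervals overlap. Against cells of related kinds the order was the other way round. Of the selected cells, C1q macrophages and dendritic cells together, the selected cells were 13.6% in wildtype (11.5 to 16.1) and 12.8% in Eppk1-/- skin (10.9 to 14.8). C1q macrophages numbered 602 and 882 cells, dendritic cells, in which the dendritic genes outweighed the other sum, 164 and 122 cells. Collagen-rich cells were 17.7% of kept cells in wildtype and 29.9% in Eppk1-/- skin, while keratinocyte-rich cells were 48.1% and 38.0%. The part of these shares in the share of selected cells was not tested.

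The targeted gene was read first. Eppk1 encodes epiplakin, a cytolinker of epithelial cells made of plakin repeats. In keratinocyte-rich cells, where it is abundant, wildtype skin had 3422 CPM of Eppk1 and knockout skin 901 CPM, a log2 ratio of -1.93 (interval -1.95 to -1.90). Where its probes lie relative to the disrupted part of the gene was not given in the sources used here, so the remaining signal does not measure residual protein. In the selected cells Eppk1 had 95 UMIs in 29 cells in wildtype and 19 UMIs in 14 cells in Eppk1-/- skin, a log2 ratio of -2.56 (-3.38 to -1.87). Without the selected cells that carried defining transcripts of other skin cell types, described further on, 16 of the 95 and 11 of the 19 UMIs were left, and the log2 ratio was -0.90 (-2.17 to 0.28), an interval that holds 0.

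Among the genes that chose the cells, Il1b (mm10, chr2:129364570-129371139) had a median of 3 UMIs per selected cell in wildtype (0 to 192) and 8 in Eppk1-/- skin (0 to 167), and its summed level was 3234 and 4424 CPM. Lyz1 (chr10:117287797-117292868) had a median of 1 UMI in both libraries, with single cells reaching 237 and 212 UMIs, and summed to 1625 and 2200 CPM. Ccr2 (chr9:124101950-124113557) never exceeded 10 UMIs in a cell and summed to 291 and 336 CPM. Mefv (chr16:3707218-3718097) summed to 187 and 156 CPM. Il1b and Lyz1 were thus concentrated in some cells and at 0 in others, whereas no cell had more than 11 UMIs of Ccr2 or Mefv.

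The shares of cells with a UMI depend on depth. An Il1b UMI was seen in 57.9% of selected cells in wildtype and 63.9% in Eppk1-/- skin, and a Ccr2 UMI in 56.2% and 66.0%. After every cell was thinned to 1000 UMIs, which left out 8 and 7 shallower cells, Il1b was seen in 47.8% and 59.3% and Ccr2 in 33.6% and 32.1%. In keratinocyte-rich cells, with median depths of 4935 and 4808 UMIs, the shares for Il1b were 1.80% and 1.89% (0.407% and 0.406% thinned). For Ccr2 they were 0.117% and 0.367% before thinning. In collagen-rich cells, with median depths of 6404.5 and 6192 UMIs, the shares for Il1b were 0.572% and 0.853%. Both genes in the selected cells stood far above these shares, as the selection requires. Whether the shares in the other cells are background or expression was not tested.

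At the edge of the selection, 14 wildtype and 7 Eppk1-/- cells had exactly 3 UMIs over the 4 genes and were taken, and 19 and 14 cells with 2 UMIs were not. The wildtype cells with 3 UMIs had Cd74 at 8290 CPM and Mpeg1 at 73.4 CPM, lower than the wildtype cells with 2 UMIs (19331 and 1060 CPM). In Eppk1-/- skin the order was reversed for Mpeg1 (372 and 293 CPM), and Cd74 was at 26661 and 24035 CPM. Most selected cells lay well inside, with a median sum of 12 UMIs in wildtype and 29 in Eppk1-/- skin.

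**Figure D1:**
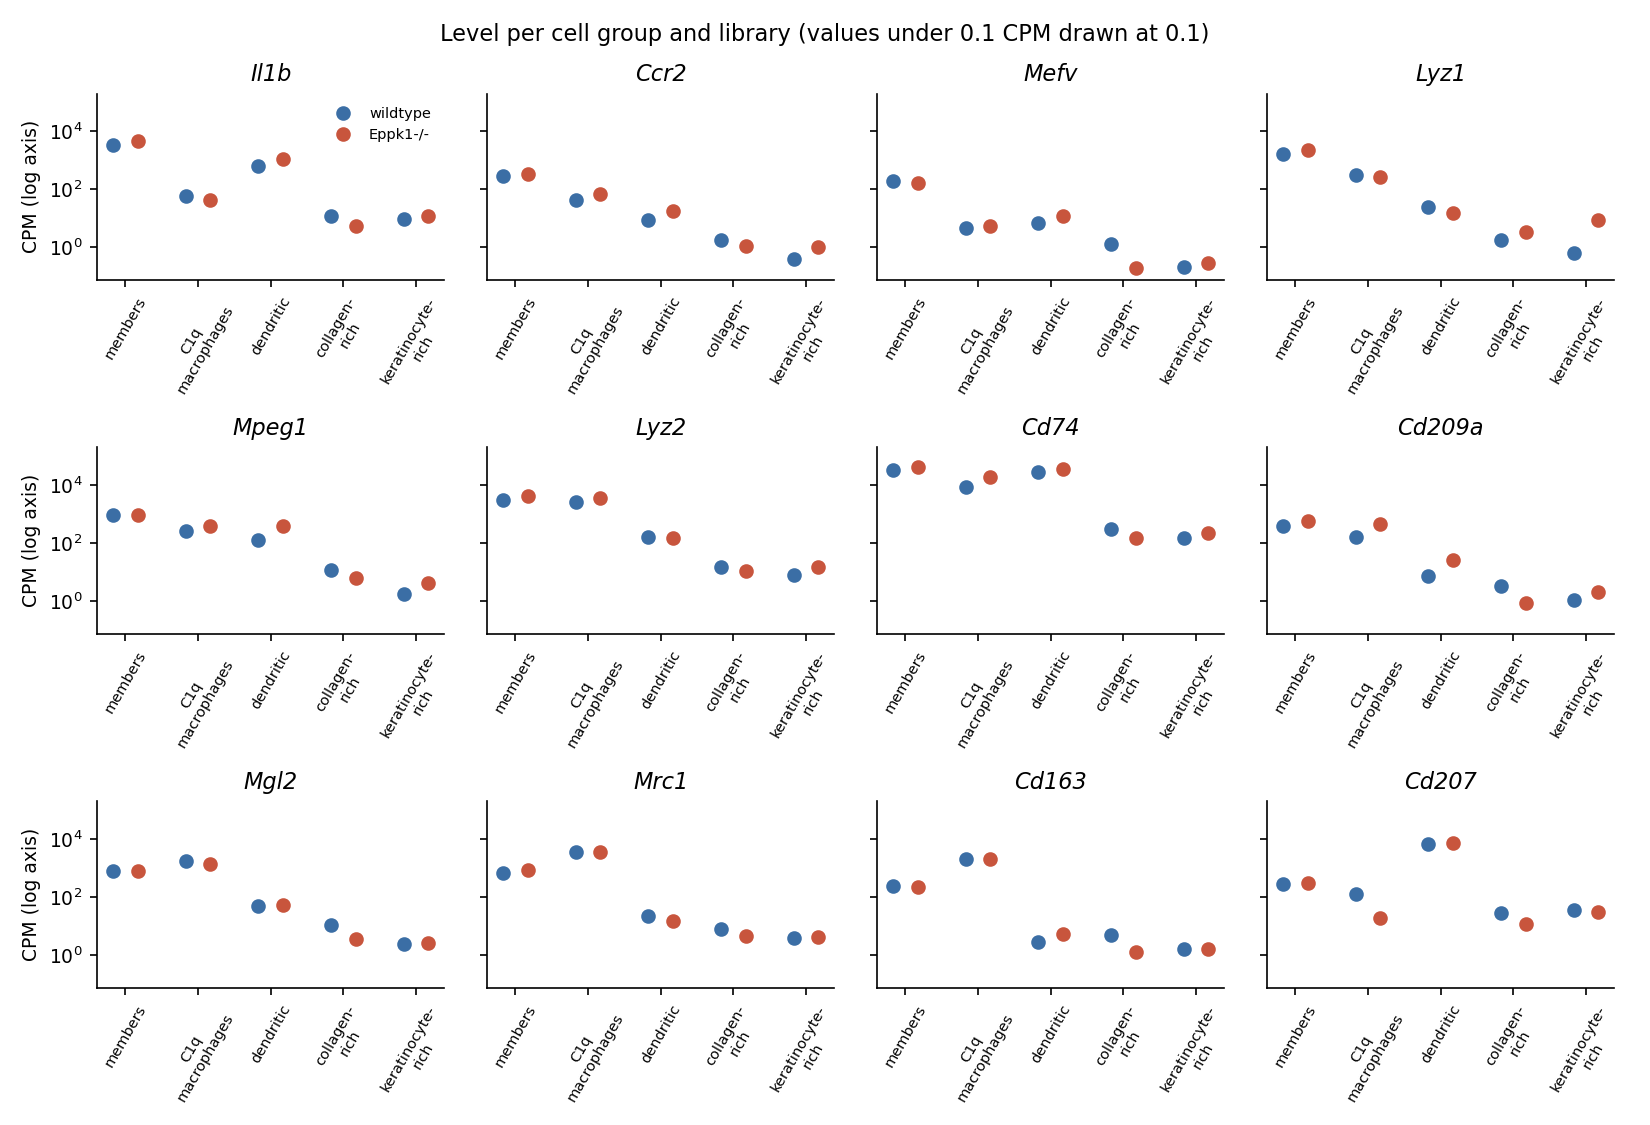
Level in CPM on a log axis of 12 genes in the selected cells (members), C1q macrophages, dendritic, collagen-rich and keratinocyte-rich cells, 1 point per library. Il1b, Ccr2, Mefv and Lyz1 are highest in the selected cells because the cells were chosen on them, Cd163 and Mrc1 are highest in C1q macrophages, Cd207 in dendritic cells, and Cd74 is as high in the selected cells (32964 and 42894 CPM) as in dendritic cells (28641 and 36445 CPM).

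The label of monocyte-like cells was checked against markers. All 10 pan-myeloid genes were detected in both libraries, which describes the summed cells and not the identity of each cell. Tyrobp, an adaptor of activating receptors, was at 1397 and 1367 CPM. Lyz2 was at 3126 and 4049 CPM, with a UMI in 87 of 121 and 118 of 147 cells. Mpeg1, which did not choose the cells, was at 923 and 902 CPM with a UMI in 67.8% and 75.5% of cells. All 11 measured genes listed for classical blood monocytes were also detected in both libraries. Their sum was 3852 and 4683 CPM, lower than in C1q macrophages (6548 and 5024 CPM) and collagen-rich cells (5100 and 6629 CPM). The genes differed in how many selected cells held them. Plac8 was found in 14.0% and 10.9% of selected cells, Vcan in 3.31% and 2.72%, and Chil3 in 2.48% and 0.680%. Ly6c2 and Cx3cr1 were not analysed here. Fn1 was at 2409 and 3319 CPM in 47.1% and 50.3% of cells, the transcription factor gene Klf4 at 733 and 659 CPM in 63.6% and 50.3%, and F13a1 at 303 and 272 CPM in 33.1% and 39.5%, and these 3 genes are made by macrophages too.

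Genes of antigen-presenting cells were measured beside them. Cd74 (the invariant chain), H2-Aa, H2-Ab1 and H2-Eb1 together took 7.51% of all UMIs of the selected cells in wildtype (7.45 to 7.57) and 9.67% in Eppk1-/- skin (9.60 to 9.73), close to the 7.55% and 9.77% of dendritic cells and above the 1.91% and 4.12% of C1q macrophages. All 11 genes listed for type 2 and monocyte-derived dendritic cells were detected, summing to 2780 and 3252 CPM. The same sum was 4039 and 3864 CPM in C1q macrophages, 3083 and 2606 CPM in collagen-rich cells, and 2830 and 1333 CPM in dendritic cells. Cd209a, the lectin DC-SIGN, had 398 and 581 CPM in 51 of 121 and 82 of 147 cells. Mgl2, a galactose lectin, had 769 and 781 CPM, and Tnip3, an inhibitor of NF-kB, 362 and 579 CPM. Mgl2 was higher in C1q macrophages (1748 and 1342 CPM), whereas Cd209a was lower there (157 and 460 CPM) and in dendritic cells of the rule (7.36 and 26.5 CPM). Genes of both the monocyte and the dendritic list were thus present, and the cells are called by their rule and not by a cell type.

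Neutrophil and macrophage genes were read in the same way. S100a8 and S100a9 had 21 and 28 UMIs in 2 wildtype cells and 0 UMIs in Eppk1-/- skin, and Ly6g, Ngp, Camp and Ltf were at 0 in both. Of the 278 and 346 UMIs of the neutrophil list, 134 and 295 were of Il1r2, the decoy receptor of interleukin-1, which dendritic cells carried at 2938 and 3273 CPM. The resident macrophage list summed to 1661 and 1653 CPM, led by the mannose receptor Mrc1, which stood at 670 and 851 CPM in the selected cells against 3691 and 3520 CPM in C1q macrophages.

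Some selected cells carried defining transcripts of other skin cells. At least 3 UMIs and 0.1% of UMIs of such a set were found in 35 wildtype cells, 28.9% of the selected cells, and in 32 Eppk1-/- cells, 21.8%. T cell and type 2 lymphocyte transcripts marked 18 and 15 cells, keratinocyte keratins 15 and 8, fibroblast transcripts 4 and 8, mast cell proteases 1 and 1, and B or plasma cell transcripts 0 and 1. The part of these cells in the results was not tested beyond leaving them out. No doublet caller was run.

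Outside the genes of the rule, the 15 genes with the highest ratio of level in the selected cells over all other kept cells, in the lower of both libraries, were listed. Most were found in a minority of the selected cells. Clec4e, the receptor Mincle that senses mycobacterial and fungal glycolipids, stood at 396 and 388 CPM against 2.71 and 3.54 CPM in all other cells, from 19.8% and 20.4% of the selected cells. Slc7a11, the cystine importer, was at 376 and 339 CPM, Mmp12, the macrophage elastase, at 337 and 725 CPM, Ptger2, a prostaglandin E2 receptor, at 172 and 114 CPM, and Itgax, the integrin CD11c, at 105 and 189 CPM. Tnip3, Cd226, Napsa, Map4k1, Tspan13, Gpr35, Tnfsf14, Aldh1a2 and Il7r followed the same pattern, with Il7r in 50.4% and 55.1% of the cells. Gzmc was also among the 15, but 77.3% of its wildtype UMIs and 59.3% of its Eppk1-/- UMIs came from 1 cell of each library. These ratios follow from the selection and carry no test.

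The selected cells were not uniform. In each cell the gene with the most UMIs among Il1b, Ccr2, Mefv and Lyz1 was taken as its leading gene. Il1b led in 63 of 121 wildtype cells (52.1%, interval 42.8 to 61.2) and in 83 of 147 Eppk1-/- cells (56.5%, 48.0 to 64.6). Lyz1 led in 24 cells (19.8%, 13.1 to 28.1) and 42 cells (28.6%, 21.4 to 36.6), Ccr2 in 27 cells (22.3%, 15.2 to 30.8) and 14 cells (9.52%, 5.31 to 15.5), and Mefv in 6 and 4 cells. For Il1b and Lyz1 the intervals of both libraries overlap, for Ccr2 they overlap only between 15.2% and 15.5%, and no share can be set against an animal-to-animal spread.

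**Figure D2:**
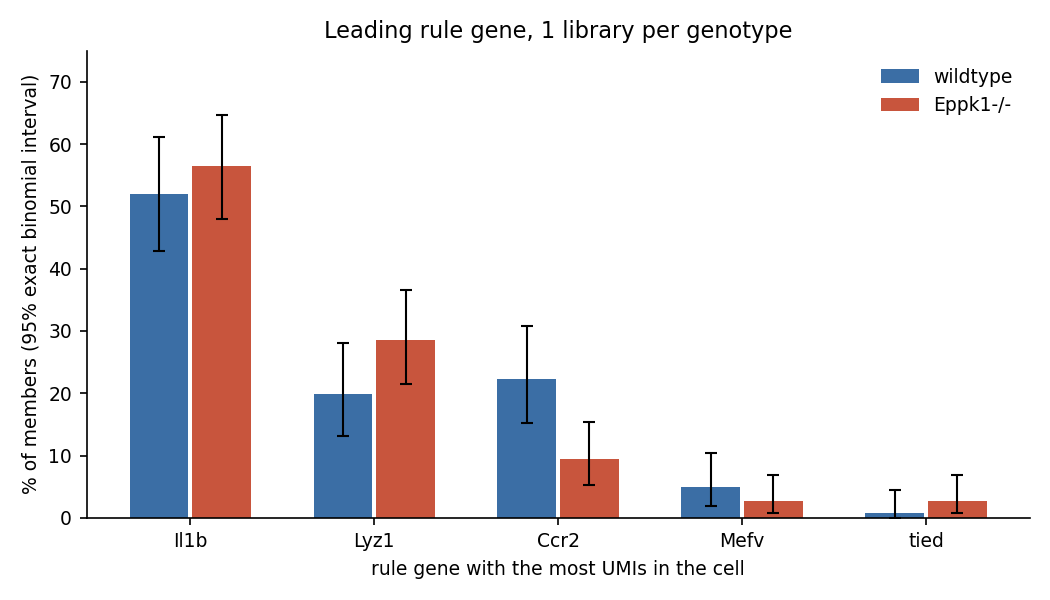
Share of selected cells led by each rule gene, in percent, 1 bar per library with exact binomial 95% intervals for counting error. Il1b-led cells are the most numerous in both libraries (52.1% and 56.5%), and Ccr2-led cells are 22.3% in wildtype and 9.52% in Eppk1-/- skin.

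The leading gene sorts the cells on Il1b and Lyz1 themselves, so the counts of both genes in the sorted cells are a description. Of the Lyz1-led cells, an Il1b UMI was found in 2 of 24 in wildtype (8.33%, 1.03 to 27.0) and 9 of 42 in Eppk1-/- skin (21.4%, 10.3 to 36.8), although these cells were deeper (median 7081 and 7336 UMIs) than the Il1b-led cells (5295 and 4829 UMIs). A Lyz1 UMI was found in 26 of 63 (41.3%) and 25 of 83 (30.1%) Il1b-led cells. The Il1b-led cells had a median of 18 and 41 Il1b UMIs, and the Lyz1-led cells a median of 9.5 and 23 Lyz1 UMIs. Cells with at least 3 UMIs of each gene numbered 9 of 121 and 13 of 147. Ccr2 was seen in 62.5% and 81.0% of Lyz1-led cells and in 39.7% and 51.8% of Il1b-led cells.

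**Figure D3:**
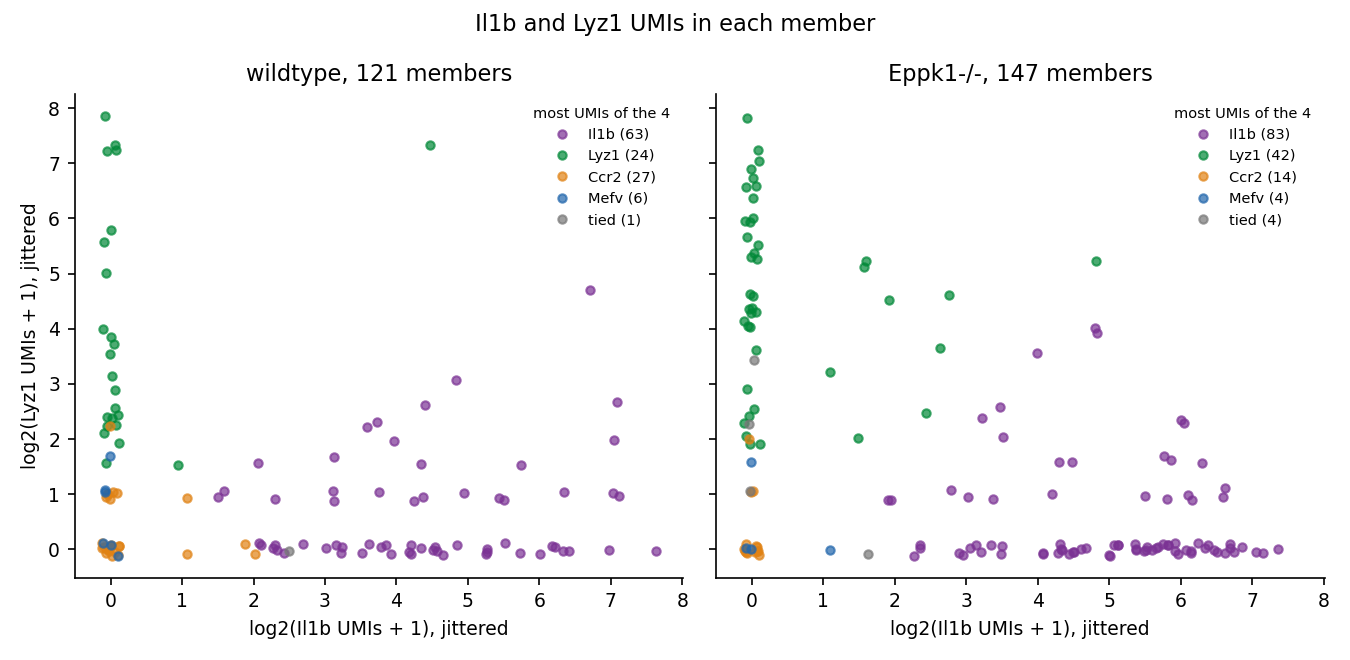
Il1b UMIs (horizontal) against Lyz1 UMIs (vertical) of each selected cell on a log2(UMIs + 1) scale with a small random shift, wildtype left and Eppk1-/- right, coloured by the leading gene. Points lie along both axes, and 9 wildtype and 13 Eppk1-/- cells have at least 3 UMIs of both genes.

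Lyz1 has a neighbour that helps to read this split. Lyz2 (chr10:117277331-117282321, minus strand, mm10) lies on the same strand, with its start 5475 bases beyond the end of Lyz1, and their coding sequences, 447 bases each, match at 425 positions (95.1%). How the probes divide their transcripts was not given in the sources used here, so counts of each are uncertain where a probe could bind both. The bases from 250 to 51 before each start, from RefSeq on GRCm38.p6 and written along the minus strand, are less alike, with 150 matches over 202 aligned positions (74.3%). They are counted back from the RefSeq starts at 117292868 for Lyz1 and 117282272 for Lyz2, and the GENCODE gene Lyz2 begins further upstream, at 117282321. Both are shown because Lyz1 is a gene of the rule and Lyz2 is not. Capitals mark AGGAA, the purine-rich core of sites bound by ETS factors such as PU.1, on either strand (TTCCT on the other).

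Lyz1, chr10:117292919-117293118: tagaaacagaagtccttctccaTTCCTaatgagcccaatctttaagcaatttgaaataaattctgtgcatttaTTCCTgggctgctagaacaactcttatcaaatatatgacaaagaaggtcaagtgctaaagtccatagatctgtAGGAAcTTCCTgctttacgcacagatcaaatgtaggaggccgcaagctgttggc
Lyz2, chr10:117282323-117282522: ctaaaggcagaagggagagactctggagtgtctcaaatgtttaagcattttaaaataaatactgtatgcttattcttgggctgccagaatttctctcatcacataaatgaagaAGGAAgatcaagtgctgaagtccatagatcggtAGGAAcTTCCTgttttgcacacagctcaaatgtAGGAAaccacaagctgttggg
Each window held 4 matches. At least 4 were present in 488 of the same windows of all 32851 promoters in the table (1.485%), and at least 1 in 52.7%. A match is a description of the letters and not a site.

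The share of Lyz1 in the summed UMIs of both lysozymes is partly set by the choice of Lyz1-led cells. It was 50.5% in wildtype Lyz1-led cells (48.3 to 52.6) and 44.5% in Eppk1-/- ones (42.9 to 46.0). In Il1b-led cells it was 9.18% (7.31 to 11.3) and 8.65% (6.96 to 10.6), and in C1q macrophages, which the rule for the leading gene did not touch, 9.95% (9.47 to 10.4) and 6.45% (6.08 to 6.83). In keratinocyte-rich cells, with 19 and 178 Lyz1 UMIs, it was 7.54% (4.60 to 11.5) and 36.0% (31.8 to 40.4). These Lyz1 UMIs came from only 0.399% and 0.581% of the keratinocyte-rich cells, and the intervals count UMIs and not cells. Lyz2 itself, which did not choose the cells, stood at 5971 and 6697 CPM in Lyz1-led cells and at 2026 and 2104 CPM in Il1b-led cells.

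The split by leading gene extended to genes that chose no cell. Over 4536 genes with at least 20 UMIs in the Il1b-led and Lyz1-led cells of each library, 560 were at least 2-fold higher in Il1b-led than in Lyz1-led wildtype cells. In Eppk1-/- skin 180 of them were past the same size in the same direction, 32.1%, where 9.88% of all 4536 genes were, and 58 were past it in the opposite direction. Of the 291 genes at least 2-fold higher in Lyz1-led wildtype cells, 119 were past that size in Eppk1-/- cells, 40.9%, where 9.24% of all were, and 15 were past it in the opposite direction. The genes named in the following sentences were chosen after their values were seen, from the 25 on either side with the largest ratio in the library where it was smaller.

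Of the genes higher in Lyz1-led cells, Retnla, the secreted protein RELM-alpha that interleukin-4 induces, stood at 15709 and 23341 CPM in Lyz1-led cells and at 2414 and 607 CPM in Il1b-led cells, with at least 3 UMIs in 18 of 24 and 36 of 42 Lyz1-led cells. Fn1, fibronectin, was at 5629 and 6811 CPM against 1231 and 655 CPM. Lpl, lipoprotein lipase, was at 1554 and 1025 CPM against 186 and 64.1 CPM, and Pltp, the phospholipid transfer protein, at 2373 and 2521 CPM against 659 and 614 CPM. The chemokines Ccl6 (1594 and 1643 CPM) and Ccl24 (262 and 86.9 CPM), the matrix protease Mmp19 (5828 and 4766 CPM), the retinoic acid enzyme Aldh1a2 (336 and 510 CPM) and the scavenger receptor Cd36 (1269 and 657 CPM) were all higher than in Il1b-led cells of the same library.

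Of the genes higher in Il1b-led cells, Il1r2 stood at 332 and 660 CPM in them against 11.4 and 39.0 CPM in Lyz1-led cells. Havcr2, the checkpoint receptor TIM-3, was at 303 and 254 CPM against 5.69 and 11.99 CPM, and Mfge8, which bridges phagocytes to dying cells, at 508 and 750 CPM against 11.4 and 14.99 CPM, with at least 3 UMIs in 5 of 63 and 8 of 83 cells. Cxcl16, a membrane-bound chemokine, was at 441 and 596 CPM against 56.9 and 74.9 CPM, Gpr183, a receptor for oxysterols, at 189 and 195 CPM against 0 and 14.99 CPM, and Cd209a, from the dendritic list, at 502 and 823 CPM against 131 and 228 CPM. Class II transcripts were high in both, with Cd74 at 38316 and 51841 CPM against 27775 and 36564 CPM.

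A minority of Il1b-led cells also held dendritic genes at high counts. At least 3 UMIs of Cd207, langerin of Langerhans cells, were found in 8 of 63 wildtype and 10 of 83 Eppk1-/- Il1b-led cells, and at least 3 UMIs of Ccr7, the receptor of dendritic cells on their way to lymph nodes, in 8 and 21 cells (12.7%, 5.65 to 23.5, and 25.3%, 16.4 to 36.0). Among Lyz1-led cells these counts were 0 of 24 and 0 of 42 for Cd207, with upper bounds of 14.2% and 8.41%, and 0 of 24 and 1 of 42 for Ccr7. The rule admitted such cells wherever the Il1b side was at least as high.

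**Figure D4:**
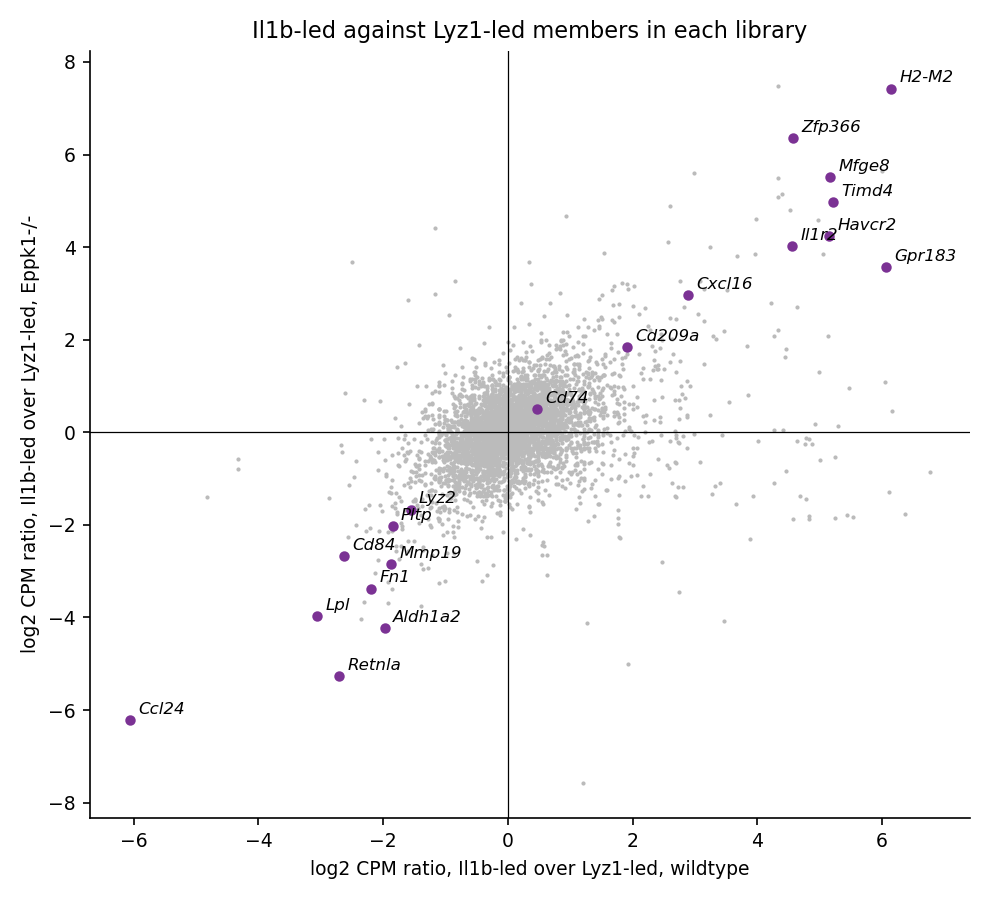
Each point is 1 of 4536 genes, with the log2 CPM ratio of Il1b-led over Lyz1-led cells in wildtype (horizontal) and in Eppk1-/- skin (vertical), all genes of the selection rule left out. Retnla, Lpl, Fn1 and Ccl24 lie at the lower left in both libraries and Mfge8, Havcr2, Il1r2 and H2-M2 at the upper right.

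Ccr2-led cells were the shallowest, with median depths of 2933 and 2205 UMIs, and 15 of 27 and 10 of 14 of them carried defining transcripts of other cell types, in 12 and 9 cases those of T cells and type 2 lymphocytes. Il5 and Csf2, cytokines of such lymphocytes, stood at 1261 and 529 CPM and at 1080 and 548 CPM in them, and Gata3, their transcription factor, at 791 and 491 CPM. At least 3 UMIs of Il5 were present in 6 of 27 and 2 of 14 cells, with up to 54 and 24 UMIs in 1 cell. At least 3 UMIs of Csf2 were present in 2 of 27 and 1 of 14 cells, with up to 98 and 27 UMIs in 1 cell, so few cells carried these levels. The class II genes took 4.57% and 4.23% of their UMIs, while the pan-myeloid list stood at 9278 and 9163 CPM, near the 9683 and 9744 CPM of Il1b-led cells. Ccr2 is known on activated and type 2 lymphocytes, and these cells go against the label.

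The genotypes were then compared over all selected cells. Log2 ratios are of CPM in Eppk1-/- over wildtype with 0.5 UMI added to each sum, and a gene was counted as different in size at a log2 ratio of at least 1 either way, given at least 20 UMIs over both libraries. Of 7642 genes, 185 (2.42%) were higher by this measure and 460 (6.02%) lower in Eppk1-/- cells. Without the cells marked by other cell types, 130 of 6097 genes (2.13%) were higher and 294 (4.82%) lower. The median log2 ratio of all genes was -0.11, and 4649 of the 7642 genes (60.8%) were below 0, which is the background for the counts of each list that follow. Scaling by trimmed means (TMM) raised every ratio by 0.14 and turned the split to 270 higher and 324 lower, and under it ratios that lie less than 0.14 under 0 become positive.

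Over all selected cells, the genes that chose them differed by less than that size between genotypes. The log2 ratio was 0.45 for Il1b (interval 0.38 to 0.53), 0.44 for Lyz1 (0.33 to 0.54), 0.21 for Ccr2 (-0.05 to 0.47) and -0.27 for Mefv (-0.62 to 0.09). For Mpeg1 it was -0.03 (-0.18 to 0.12) and for Lyz2 0.37 (0.30 to 0.45). With cells marked by other types left out, Lyz1 came to 0.10 and Il1b stayed at 0.45. A stricter choice left out every selected cell with at least 3 UMIs of the full lists of other cell types, with no minimum share of UMIs. The full lists hold Il7r, found in 50.4% and 55.1% of selected cells, so cells could be left out on Il7r alone. Of its 198 and 276 UMIs, 10 and 18 remained, so the cells kept need not be typical of the selected cells. Kept were 36 wildtype and 45 Eppk1-/- cells, of which 22 and 32 were Il1b-led, 6 and 1 Ccr2-led, and 6 and 9 Lyz1-led. In them Lyz1 was past the size measure at 91 and 414 UMIs (1.59, 1.26 to 1.94), Il1b was at 0.50 (0.33 to 0.66), Ccr2 at 0.58 (0.02 to 1.18), Mefv at 0.08 (-0.67 to 0.87) and Mpeg1 at 0.39 (0.09 to 0.69), the last 2 of the other sign. The median over the 2910 genes with at least 20 UMIs there was -0.04, and 52.9% of them were lower. By the size measure 144 of them (4.95%) were higher and 156 (5.36%) lower, a more even split than over all selected cells. Only 9 of the 144 and 8 of the 156 were also past it in that direction over all selected cells.

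Hilpda, which binds lipid droplets and is induced by hypoxia, was the most widespread of the 10 genes with the lowest ratios among those with at least 50 UMIs and a UMI in at least 10% of cells of a library. It had 346 UMIs in 56.2% of wildtype cells and 76 UMIs in 27.2% of Eppk1-/- cells, with at most 31 and 8 UMIs in a cell, a log2 ratio of -2.45 (-2.83 to -2.09). The ratio was -2.30 (-2.89 to -1.78) in Il1b-led and -2.82 (-3.44 to -2.26) in Lyz1-led cells, and -2.54 without the cells marked by other types. The counts of single cells overlap, since 0 UMIs occurred in both libraries.

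Cxcl3, a neutrophil-attracting chemokine, had 230 UMIs in 14 wildtype cells and 28 UMIs in 4 Eppk1-/- cells, a log2 ratio of -3.28 (-3.93 to -2.74). Csf1, the macrophage growth factor, had 51 and 14 UMIs (-2.10, -3.10 to -1.26), of which 4 and 1 were in cells not marked by other types. Siglecg, an inhibitory lectin, had 44 and 11 UMIs (-2.22, -3.37 to -1.29), and Gprc5a 79 and 24 UMIs (-1.96, -2.71 to -1.31). The histone gene Hist1h2ae had 83 and 9 UMIs (-3.40, -4.65 to -2.48). Krt15, Eppk1, Actn1 and Anxa8 were also among the 10, and without the marked cells their ratios were -0.77, -0.90, -0.77 and -0.77. Apart from Hilpda, the 10 genes had a UMI in at least 10% of cells only in the wildtype library, where they were high.

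Most of these ratios were smaller without the cells of the full lists. Cxcl3 had 2 and 3 UMIs there (-0.11), Hist1h2ae 2 and 2 (-0.59), Csf1 1 and 1 (-0.59) and Siglecg 3 and 5 (0.06, the other sign), too few to give a direction. Hilpda had 26 and 19 UMIs (-1.03, -1.98 to -0.13) and Gprc5a 9 and 4 (-1.67, -3.91 to 0.08).

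Of the 10 genes with the highest ratios, Ighm rested on 1 Eppk1-/- cell, which held 5637 of its 5702 UMIs together with 5330 of 5338 Igkc UMIs and all 327 Jchain UMIs, genes of antibody-secreting plasma cells. Igfbp3, C3 and Dpt, which fibroblasts make, had log2 ratios of 1.56, 1.45 and 1.36, and -0.49, -0.51 and 0.65 without the marked cells. The other 6 kept their sign and a ratio above 1 there, in a part of the same cells that chose them, so this is no separate check. Sema7a, a membrane-anchored semaphorin, had 15 and 60 UMIs (1.70, 0.90 to 2.66), and F10, coagulation factor X, 31 and 98 UMIs (1.38, 0.80 to 2.03). Cd300lb, an activating receptor of myeloid cells, had 19 and 65 UMIs (1.48, 0.75 to 2.33), Tnfsf12, the cytokine TWEAK, 26 and 80 UMIs (1.34, 0.70 to 2.05), Tmem154 12 and 44 UMIs (1.57, 0.66 to 2.66), and Klri1 32 and 98 UMIs (1.33, 0.76 to 1.97). Without the cells of the full lists, Sema7a came to 0.37, and Cd300lb and Tnfsf12 to 0.90 each.

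**Figure D5:**
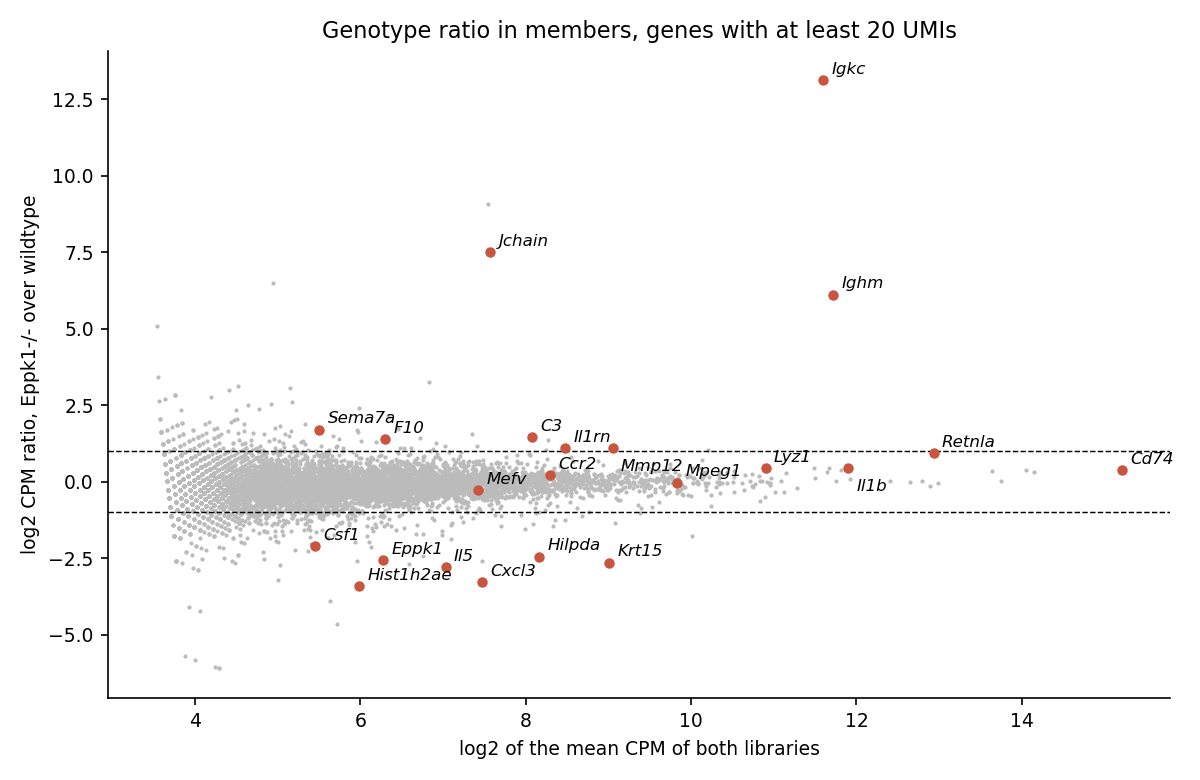
Log2 CPM ratio of Eppk1-/- over wildtype selected cells (vertical) against the log2 of the mean CPM (horizontal) for 7642 genes, dashed lines at -1 and 1. Hilpda, Cxcl3 and Hist1h2ae lie below the lower line, the immunoglobulin genes Igkc, Ighm and Jchain from 1 cell lie at the top, and Il1b, Lyz1, Ccr2, Mefv and Mpeg1 lie between the lines.

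Among 14 measured genes of the interleukin-1 family and inflammasomes, 4 were higher and 10 lower, with a median log2 ratio of -0.18, close to the -0.11 of all genes. The list holds Il1b and Mefv, and without them 3 were higher and 9 lower with the same median. Past the size measure were 2 genes. Il1rn, the receptor antagonist, had 163 and 417 UMIs (1.09, 0.82 to 1.36), and Il1a, the other agonist cytokine, 35 and 7 UMIs in 6.61% and 2.72% of cells (-2.51, -4.00 to -1.40). The log2 ratio was 0.87 for Il1r2 (0.57 to 1.18), -0.16 for Nlrp3, a sensor, and 0.20 for Casp1, the protease that cleaves the cytokine, and the last 2 intervals hold 0. Without the marked cells Il1rn came to 0.83. In the cells kept by the stricter choice Il1rn was at 1.43 (0.76 to 2.22) and Il1r2 at -0.05 (-0.51 to 0.43, the other sign). The median there over 9 genes of the list, Il1b and Mefv included, was -0.02.

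Of 14 measured chemokine ligands, 10 were higher and 4 lower (median 0.23), with Ccl5, Ccl7, Ccl22 and Cxcl10 higher and Cxcl3 lower by the size measure. Ccl22 rested on 10 and 25 UMIs (1.01, -0.05 to 2.28). The 3 most abundant had log2 ratios of 0.10 for Cxcl2 (3754 and 4012 CPM), -0.01 for Ccl9 and 0.13 for Ccl6. Cxcl10, which attracts activated T cells, had 50 and 147 UMIs (1.28, 0.82 to 1.78), and 0.27 without the marked cells. Without the cells of the full lists Cxcl10 had 8 and 8 UMIs (-0.59) and Ccl22 came to -0.11, both of the other sign. Other chemokines were further apart there, with Cxcl2 at 86 and 503 UMIs (1.95, 1.62 to 2.30), Ccl5 at 3 and 72 UMIs (3.78, 2.39 to 6.31), Ccl6 at 0.51 (0.12 to 0.93) and Ccl9 at 0.46 (0.17 to 0.76, the other sign), and the median over 10 of them was 1.06. Of 8 chemoattractant receptors other than Ccr2, which chose the cells, 4 were higher and 4 lower (median 0.01), and C5ar1, the receptor of complement C5a, was lower at 36 and 11 UMIs (-1.93, -3.10 to -0.97). Cxcr4, which holds cells in tissue and marrow, stood at 573 and 422 CPM (-0.44), and at 0.22 (-0.21 to 0.68) without the cells of the full lists.

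Class II genes were mostly higher over all selected cells. Of 11 measured, 10 were higher and 1, Cd40, lower, with a median log2 ratio of 0.38 against -0.11 for all genes, and none passed the size measure. Cd74 was at 0.38 (0.36 to 0.40), H2-Aa at 0.38 (0.34 to 0.41) and H2-Eb1 at 0.32 (0.29 to 0.36). Per selected cell, Cd74 had a median of 183 UMIs in wildtype (0 to 626) and 249 in Eppk1-/- skin (0 to 598), so single cells of both libraries covered nearly the same range. The median over the list without the marked cells was 0.33. It was 0.15 over 9 genes, 7 higher and 2 lower, without the cells of the full lists, with Cd74 at 0.15 (0.10 to 0.20), H2-Aa at 0.15 (0.08 to 0.22) and H2-Eb1 at 0.11 (0.04 to 0.18). Dendritic cells and C1q macrophages were also higher in Eppk1-/- skin for the 4 main class II transcripts, at the shares of UMIs given above. Ccr2-led cells were lower for them, at 4.57% of UMIs in wildtype and 4.23% in Eppk1-/- skin.

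The lists of lysosomal and oxidase genes (17 measured beside Lyz1, 8 higher and 9 lower, median -0.02), Fc receptors and adaptors (7 measured, 4 higher, median 0.10), integrins and migration (15 measured, 9 higher, median 0.05), myeloid transcription factors (20 measured, 11 higher, median 0.02), MS4A genes (6 measured, 2 higher, median -0.18), pan-myeloid genes (10 measured, 5 higher, median 0.00) and genes of type 2 and monocyte-derived dendritic cells (11 measured, 6 higher, median 0.02) had no gene past the size measure. Spi1, which encodes PU.1, was at 656 and 686 CPM (0.06, -0.11 to 0.24), and Cebpb at 2145 and 2203 CPM (0.04, -0.06 to 0.14). In the stricter choice of cells Cebpb was at 0.44 (0.22 to 0.68), the lysosomal and oxidase median, Lyz1 included, at 0.39, the dendritic median at 0.18, and Mgl2, at 0.02 over all selected cells, at -0.65 (-0.96 to -0.35). Of the dendritic genes over all selected cells, Itgax (0.85, 0.45 to 1.27) and Tnip3 (0.68, 0.46 to 0.90) were the highest and Clec10a (-0.74) the lowest. Without the cells of the full lists Itgax was at 0.91 (-0.03 to 2.03) and Tnip3 at 0.31 (-0.15 to 0.80).

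Of the cytokine and NF-kB genes, 12 of 20 were higher (median 0.07), and Csf1 was past the size measure. Ier3, an immediate early gene of that response, was at 1537 and 881 CPM (-0.80, -0.94 to -0.67, and -0.38 without the cells of the full lists), and Nfkbia and Zfp36, its brakes, at 0.25 and 0.32. Of 17 pattern recognition genes 3 were higher and 14 lower (median -0.20), where 60.8% of all genes were lower. In the stricter choice of cells 5 of 10 were higher and 5 lower (median -0.07). Over all selected cells Tlr1 (17 and 6 UMIs) and Tlr4 (44 and 19 UMIs), receptors of bacterial lipopeptide and lipopolysaccharide, were lower by the size measure. Without the cells of the full lists both had the other sign, on 0 and 1 UMIs for Tlr1 and on 2 and 5 for Tlr4 (0.55, -1.88 to 4.12). Cd14, the co-receptor of lipopolysaccharide, stood at 1780 and 1625 CPM (-0.13, -0.24 to -0.02), and had the other sign without the cells of the full lists at 158 and 398 UMIs (0.74, 0.47 to 1.02). Of 7 colony-stimulating factor receptors beside Flt3, a gene of the rule, 4 were higher (median 0.09), Csf2rb at 1168 and 1130 CPM (-0.05, and 0.34 without the cells of the full lists), and Kit, also a mast cell gene, was past the size measure at 10 and 30 UMIs (1.27). The mast cell proteases Mcpt4 (21 and 114 UMIs) and Cma1 (5 and 55 UMIs) were higher beside it.

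Of 13 early genes that dissociation can induce, 11 were lower in Eppk1-/- cells with a median of -0.34, where 60.8% of all genes were lower. Egr1 was at 893 and 437 CPM (-1.03, -1.22 to -0.85), Fos at 1467 and 1137 CPM (-0.37) and Hspa1a, a heat shock gene, at 2237 and 1582 CPM (-0.50). Of 16 genes of the glucocorticoid response 12 were lower (median -0.29, and -0.17 without the marked cells), with Fkbp5 (58 and 30 UMIs, -1.21) and Sgk1 (268 and 159 UMIs, -1.02) past the size measure, and Sgk1 came to -0.14 without the marked cells. Without the cells of the full lists Egr1 was at -0.25, Fkbp5 at -0.77 and Sgk1 at 0.33, the last of the other sign. There the glucocorticoid median also had the other sign, 0.11 over 13 genes, the early gene median was -0.25, and Hspa1a was at -1.15 (-1.34 to -0.96). Of 10 clock genes 5 were lower (median -0.03), Hlf (34 and 11 UMIs) and Nr1d1 (56 and 33 UMIs) past the size measure. Of 15 interferon-stimulated genes 9 were lower (median -0.10), with Irf7 (48 and 18 UMIs, -1.66) past the size measure. Without the marked cells 11 of 13 were lower (median -0.50), 3 of them past it. Of all genes there, 58.4% were lower (median -0.09) and 4.82% were lower by the size measure. In the stricter choice of cells 4 interferon-stimulated genes were measured, 1 higher and 3 lower (median -0.18). In all selected cells Isg15 was at 242 and 353 CPM (0.55, 0.27 to 0.82). The time of day and the handling of each mouse were not given in the sources used here, and their part in these values was not tested.

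Proliferation genes were lower in all 5 measured (median -1.36), from 266 UMIs over the list in wildtype to 150 in Eppk1-/- skin. Top2a, which untangles replicated DNA, had 83 and 38 UMIs in 16.5% and 8.16% of cells (-1.38, -1.99 to -0.82), and Mki67 75 and 57 UMIs (-0.66, -1.19 to -0.15). Without the marked cells the list's median was -1.27, and without the cells of the full lists Top2a had 2 and 2 UMIs. The summed level of the list was lower in Il1b-led cells (417 and 190 CPM) and Ccr2-led cells (824 and 56.7 CPM) and higher in Lyz1-led cells (34.2 and 198 CPM). Of 6 plakins beside Dsp, a gene of the rule, 5 were lower (median -0.26), and beside Eppk1 none passed the size measure, with Plec at -0.17 (-0.36 to 0.02) and Macf1 at -0.16 (-0.46 to 0.15).

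Lists of other cell types also differed between the libraries. The keratinocyte list summed to 2362 and 880 CPM, with 6 of 7 genes lower by the size measure and Krt15 the most abundant (636 and 122 UMIs). The fibroblast list summed to 418 and 823 CPM, 5 of 6 genes higher, led by Dpt (124 and 383 UMIs), and without the marked cells to 125 and 89.7 CPM, the opposite order. The mast cell and basophil list summed to 179 and 378 CPM (5 of 6 genes higher and Hdc lower by the size measure), and without the marked cells to 70.8 and 41.6 CPM, again the opposite order. The keratinocyte list without them was at 74.97 and 54.4 CPM. The T and NK list summed to 843 and 976 CPM (8 of 10 higher, led by Il7r). Il5 (164 and 28 UMIs), Il13 (67 and 5 UMIs) and Csf2 (131 and 29 UMIs) had log2 ratios of -2.80, -3.88 and -2.42, and each was found in at most 7 wildtype cells. For the endothelial list (57.3 and 77.9 CPM) Flt1 (6 and 26 UMIs) was higher by the size measure, and for plasmacytoid dendritic cells (62.9 and 65.1 CPM) Tcf4 alone had at least 20 UMIs (0.09). The median log2 ratios of the patrolling monocyte, neutrophil, resident macrophage, mature dendritic and B and plasma lists were 0.01, -1.75, -0.50, 0.58 and 6.81, the last from the cell with immunoglobulin transcripts, with Cd83, a marker of mature dendritic cells, at 597 and 893 CPM (0.58, 0.41 to 0.75). Without the marked cells these medians were -0.24, -1.86, -0.17, 1.13 and -0.73, the last from 1 gene. Over all selected cells the neutrophil median came from 5 genes and the resident macrophage median from 9. The summed levels of these lists were nearly equal in both libraries, 389 and 402 CPM for neutrophil genes and 1661 and 1653 CPM for resident macrophage genes. The classical monocyte list had a median of -0.15 over 11 genes, 3 higher and 8 lower. Of its 7 genes with at least 20 UMIs in the stricter choice of cells, 6 were higher (median 0.49, the other sign), with Fn1 at 1.40 (1.15 to 1.66), and Cd83 was lower (-0.34, -0.65 to -0.03), also the other sign. The Y-linked genes Ddx3y, Uty, Eif2s3y and Kdm5d had 0 UMIs in the selected cells of both libraries.

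Within the cells led by each gene, some genotype values went separate ways. In Il1b-led cells 175 of 5685 genes (3.08%) were higher by the size measure and 449 (7.9%) lower. In Lyz1-led cells 279 of 4254 genes (6.56%) were higher and 223 (5.24%) lower. Retnla was lower in Eppk1-/- than in wildtype Il1b-led cells (-1.99, -2.20 to -1.79) and higher in Lyz1-led cells (0.57, 0.51 to 0.63). In Il1b-led cells its 908 and 256 UMIs came from 17 wildtype and 12 Eppk1-/- cells, with up to 246 and 136 UMIs in 1 cell. Cxcl2 was at -1.33 (-1.49 to -1.18) in Il1b-led and at 0.13 (0.04 to 0.22) in Lyz1-led cells. Il1rn was at 0.14 (-0.31 to 0.60) and 1.38 (0.99 to 1.81), and Mmp12 at 1.83 (1.53 to 2.15) and -0.30 (-0.71 to 0.11). Class II was higher in both, with Cd74 at 0.44 and 0.40. Tnip3 was at 0.85 (0.58 to 1.12) and 0.79 (0.25 to 1.39), and Cd209a at 0.71 (0.45 to 0.98) and 0.78 (0.11 to 1.54). In the stricter choice of cells, not split by leading gene, Tnip3 was at 0.31 (-0.15 to 0.80) and Cd209a at 0.18 (-0.16 to 0.54). Mmp12 was at 0.16 (-0.27 to 0.60) there, and all these intervals hold 0. These differences between the kinds of cell come from groups of 24 to 83 cells and were not tested. The 4 genes with unlike values were chosen after their values were seen.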

How the data were processed

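Single cells of whole dorsal skin were profiled with probe pairs on fixed cells (10x Genomics fixed RNA profiling, mouse whole transcriptome probes). The deposited UMI counts, made by the authors with Cell Ranger 8.0.1 per the file headers and on mm10 (GRCm38) per the submitters' processing notes, are raw whole numbers per gene and called cell. Here the counts of the selected cells were summed per library and gene, scaled to CPM without the 13 mitochondrial genes and compared as log2 ratios with 0.5 UMI added. Intervals at 95% were Poisson, Clopper-Pearson or conditional binomial. No test was run, since each genotype had 1 library, and no doublet caller was run. Genes were named as the 10 highest and 10 lowest ratios among genes with at least 50 UMIs and in at least 10% of cells of a library, the 3 most abundant of each list and those past the size measure, and the 15 highest over other cells. Members and lists were chosen with earlier results of these data known. The rule for cells marked by other types was set after the cells were seen. The ratios were tested on simulated data. Alternatives changed selection limits, scaling (TMM, edgeR 4.0.16), weighting, thinning and filters. Python 3.11.15, scipy 1.17.1 and R 4.3.3 were used. Sequences came from RefSeq and gene positions from GENCODE, both on GRCm38. Several listed genes, such as Ly6c2 and Cx3cr1, were not analysed here.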

Additional observations from a re-analysis of the deposited data

Results flagged for a closer look

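Among 1965 genes compared between the genotypes within both Il1b-led and Lyz1-led cells, 17 differed by at least 1 log2 unit in opposite directions, and 6 of them did so also without the cell that held most of their UMIs. The differences between the kinds of cell were not tested, and each library is 1 mouse. Jdp2, a repressor of AP-1, had 375 UMIs in 42 wildtype and 179 UMIs in 46 Eppk1-/- Il1b-led cells, a log2 ratio of -1.229, and 35 UMIs in 13 and 161 UMIs in 29 Lyz1-led cells, a ratio of 1.26. The other 5 rested on few cells. Anxa3 was at -1.255 in Il1b-led and 1.56 in Lyz1-led cells, from 5 to 10 cells a group. Igfbp4 was at -1.349 and 2.75, Igfbp6 at -1.78 and 2.82, and Vasn at -1.78 and 1.97, each from 4 to 6 UMIs in Lyz1-led wildtype cells. The fibroblast list went the same ways, from 694 CPM in wildtype to 579 CPM in Eppk1-/- Il1b-led cells and from 131 to 782 CPM in Lyz1-led cells. Fibroblast transcripts marked 0 of 24 and 2 of 42 Lyz1-led cells, and their part in these values was not tested. Akr1c18 had 56 and 0 UMIs in Il1b-led cells, a fitted value of -6.984 that depends on the 0.5 UMI added and is no bound, with 91.1% of the 56 in 1 cell, and it was at 1.79 in Lyz1-led cells.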

How the results depend on the processing

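No paired analysis was possible because each genotype had 1 library and the labels share no replicate numbers. The 16 planned and 2 added alternatives gave 2698 log2 ratios of 151 named genes, of which 212 had the other sign than reported, 31 of them for genes past the size measure, and 520 list medians, of which 55 had the other sign. Of 63 named genes past the size measure, 51 fell short of it or turned under at least 1 alternative, among them 25 of 61 without marked cells, 27 of 49 without cells of the full lists and 19 of 63 after thinning. The share of selected cells in wildtype was 1.03% with a sum of at least 5 UMIs, 1.10% without shared droplet barcodes, 0.969% without cells marked by other types and 0.406% when any cell with 3 UMIs of the full lists of other types was left out. In Eppk1-/- skin the last 2 gave 1.33% and 0.522%. Genes lower by the size measure numbered 294 without marked cells, 156 without cells of the full lists, 722 when each cell weighed the same, 150 after thinning, 148 with at least 50 UMIs and 2368 with at least 1 UMI. Genes higher numbered 144 without cells of the full lists, 89 after thinning, 62 with at least 50 UMIs and 1262 with at least 1 UMI. Median centring gave 250 higher and 351 lower. For genes and list medians past the size measure the sign changed as follows, and the cause was not tested. With a sum of at least 5 UMIs, Gzmc was at -0.21, Hp at 0.19 and the neutrophil median at 0.53. Without Lyz1 in the sum, Gzmc was at -0.13 and Chil3 at 0.15, and without shared barcodes Chil3 was at 0.24. Without cells of the full lists, Siglecg was at 0.061, Ighm at -1.41, Igfbp3 at -1.12, Ccl22 at -0.11, Krt14 at 0.15, Col17a1 at 0.15, Cxcl10 at -0.59, Tlr1 at 0.99, Tlr4 at 0.55 and Sgk1 at 0.33. Without cells with neutrophil genes, Igfbp3 was at -0.68 and Ace at -0.013. Without cells marked by other types, Ighm was at -0.73, Igfbp3 at -0.49, C3 at -0.51, Chil3 at 0.0079, Cpa3 at -0.38, Nkg7 at -0.74, Jchain at -1.96, Krt14 at 0.15 and Col17a1 at 0.15. With equal weight per cell Cxcl10 was at -0.27, after thinning Nkg7 was at -0.31 and Rrm2 at 0.54, and without the highest cell Ighm was at -0.0013 and Cpa3 at -0.27. The median of the classical monocyte list without cells of the full lists was 0.49 and that of the glucocorticoid list 0.11, against -0.15 and -0.29 over all selected cells. Both alternatives that left out marked cells or the highest cell were chosen after seeing the data.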
